A study of Rattus norvegicus with 23 samples.

Results

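The following 6 entries of piRBase, a catalogue of piRNA sequences, were examined in the sperm of rats that had breathed ozone or filtered air: piR-rno-227431, piR-rno-346434, piR-rno-1361373, piR-rno-3926760, piR-rno-807920 and piR-rno-285206. They are 6 of the 30676 rows, 15164 of them distinct, of a deposited table of normalised piRNA values, and they were chosen from that table because they ranked among the smallest unadjusted p-values against air, or were called once 1 rat was left out. The values against air are therefore given as a description without a test. No other row of the table had values identical to any of the 6. The small RNA came from the cauda sperm of Long-Evans males. Of these, 7 breathed filtered air, 8 breathed ozone set at 0.4 ppm (chamber mean 0.401 ppm) and 8 breathed ozone set at 0.8 ppm (chamber mean 0.798 ppm). Exposures lasted 4 h and came 3 times in the first week and 2 times in the second. Each library is 1 rat, so the spread given below holds differences between animals and between library preparations, which cannot be told apart. The question behind the series was what repeated ozone exposure does to sperm motility and to the noncoding RNA of sperm.

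piRNAs are small RNAs of the germ line that are bound by PIWI proteins. In the rodent testis they guide the silencing of transposons, and a large later set is made in meiotic spermatocytes from long single-stranded precursors. Many piRNA sequences resemble one another or come from repeats, so a short read can match several catalogue entries. The files name the 6 entries by piRBase number only, and no gene, locus or target is assigned to them here.

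The label of low abundance held in part. Over the 23 libraries the mean normalised value of the entries ran from 2.29 for piR-rno-227431 to 11.4 for piR-rno-3926760 and piR-rno-807920, where the median distinct row averaged 9.89 and the most abundant row, piR-rno-3104129, averaged 429630. The means of 4 of the 6 entries lay below that median row, piR-rno-227431 lowest at the 6.61th percentile of distinct rows, and those of piR-rno-3926760 and piR-rno-807920 lay just above it, at the 54.5th and 54.6th. The most repeated low values of a library were whole multiples of 1 step, which gives what 1 read was worth there. That worth ran from 0.473 to 0.955 in air libraries, from 0.531 to 2.01 at 0.4 ppm and from 0.489 to 1.34 at 0.8 ppm. If the step is 1 read, a library held 10368902 to 17597093 reads in this table, and 40 of the 138 values of the 6 entries, or 29.0%, stood for less than 1 read, against 11.2% of the values of distinct rows. Differences among values under 1 read are below what this depth resolves.

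The libraries carried the miRNAs of late germ cells. The miR-34c, miR-34b and miR-449a arms together held 42.2% ± 5.40 (SD) of the miRNA table in air, 35.3% ± 6.38 at 0.4 ppm and 41.3% ± 9.14 at 0.8 ppm. The 5 epithelial miR-200 family members held 1.13% ± 0.325, 1.77% ± 0.713 and 1.27% ± 0.713 in the same order, the 4 leukocyte miRNAs 0.0616% ± 0.0129, 0.0750% ± 0.0294 and 0.0586% ± 0.0132, and the 2 measured erythroid miRNAs 0.0338% ± 0.0120, 0.0586% ± 0.0495 and 0.0352% ± 0.0161. In bulk sperm, fewer cells of a type and less RNA per cell cannot be told apart, and the part of these shares in the values below was not tested. None of the 8 listed sperm mRNAs, protamines among them, was in the deposited transcript table.

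Against air, no piRNA row of the 30676 passed in either ozone group. limma with Benjamini-Hochberg adjustment called 0 rows (0%) at 0.4 ppm, with a smallest adjusted p of 0.134, and 0 rows (0%) at 0.8 ppm, with a smallest adjusted p of 0.9995. An exact Wilcoxon rank-sum test also gave 0 in both. Leaving out air replicate 2 gave 1 call at 0.4 ppm, piR-rno-227431, and leaving out 0.4 ppm replicate 5 gave 2, piR-rno-346434 and piR-rno-285206. Such calls were part of the choice of entries. Of the 23 libraries, 0.4 ppm replicate 5 had the highest worth of 1 read, 2.01, while that of air replicate 2 was 0.831. The part of this worth in the calls was not tested. At an unadjusted p under 0.05 limma gave 1417 rows (4.62%) at 0.4 ppm, 522 higher (1.7%) and 895 lower (2.92%). At 0.8 ppm it gave 723 rows (2.36%), 236 higher (0.769%) and 487 lower (1.59%). Between the doses, 0.8 ppm against 0.4 ppm, limma called 0 rows (0%) after adjustment, as did the exact Wilcoxon test, and 804 rows (2.62%) before it, 488 higher (1.59%) and 316 lower (1.03%). These counts include 15512 rows that repeat an earlier row. Of the 15164 distinct rows, the unadjusted counts were 775 at 0.4 ppm, 448 at 0.8 ppm and 528 between the doses. Among distinct rows, the 4 smallest p-values at 0.4 ppm were those of piR-rno-227431, piR-rno-1361373, piR-rno-346434 and piR-rno-285206, and the 3 smallest at 0.8 ppm were those of piR-rno-3926760, piR-rno-227431 and piR-rno-807920. The row just outside at 0.4 ppm was piR-rno-1220207, at 0.709 ± 0.468 against 4.14 ± 3.22 in air (SD), next to piR-rno-285206 at 2.02 ± 5.24 against 11.9 ± 4.40. The row just outside at 0.8 ppm was piR-rno-874567, at 2.26 ± 3.25 against 8.14 ± 4.35 in air, next to piR-rno-807920 at 19.2 ± 11.3 against 3.11 ± 0.991.

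Of the 3 entries that were lower in both ozone groups, piR-rno-227431 was the lowest row. Its lowest, median and highest normalised values were 0.387, 5.35 and 11.4 in air, 0.122, 0.345 and 0.794 at 0.4 ppm, and 0.174, 1.04 and 3.19 at 0.8 ppm. At 0.4 ppm every library was below 1 in value and 7 of 8 were under 1 read, yet the groups overlapped, because air replicate 2 stood at 0.387, the level of the 0.4 ppm libraries. The means ± SD were 5.71 ± 3.95 (n = 7) in air, 0.358 ± 0.197 (n = 8) at 0.4 ppm and 1.22 ± 0.938 (n = 8) at 0.8 ppm. Its log2 fold change against air, taken on log2(value + 1), was -2.03 ± 0.35 (SE) at 0.4 ppm and -1.41 ± 0.35 at 0.8 ppm. For a row this low the size depends on how values under 1 read are treated. At 0.4 ppm it was -3.275 with 0.1 added in place of 1, and -1.45 with values under 1 read raised to 1 read.

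piR-rno-1361373 had its lowest, median and highest values at 7.17, 14.6 and 20.3 in air, 0.222, 0.564 and 12.7 at 0.4 ppm, and 0.0910, 5.06 and 11.9 at 0.8 ppm. At 0.4 ppm 7 of 8 libraries lay below the lowest air library, and replicate 8, at 12.7, lay inside the air range. At 0.8 ppm the libraries were spread, 5 of 8 below the lowest air library and 3 inside its range. The log2 fold change was -2.68 ± 0.56 (SE) at 0.4 ppm and -1.73 ± 0.56 at 0.8 ppm.

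piR-rno-285206 ran at 6.48, 11.2 and 19.8 in air (lowest, median and highest), at 2.48e-05, 0.0174 and 15.0 at 0.4 ppm, and at 0.0250, 6.66 and 17.9 at 0.8 ppm. At 0.4 ppm 7 of 8 libraries were under 1 read and below each air library. The eighth, replicate 5, stood at 15.0, in the middle of the air range. At 0.8 ppm 4 of 8 libraries lay below the lowest air library and the others reached air levels. The log2 fold change was -2.95 ± 0.64 (SE) at 0.4 ppm and -1.24 ± 0.64 at 0.8 ppm, and without 0.4 ppm replicate 5 it was -3.43 at 0.4 ppm.

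**Figure D1:**
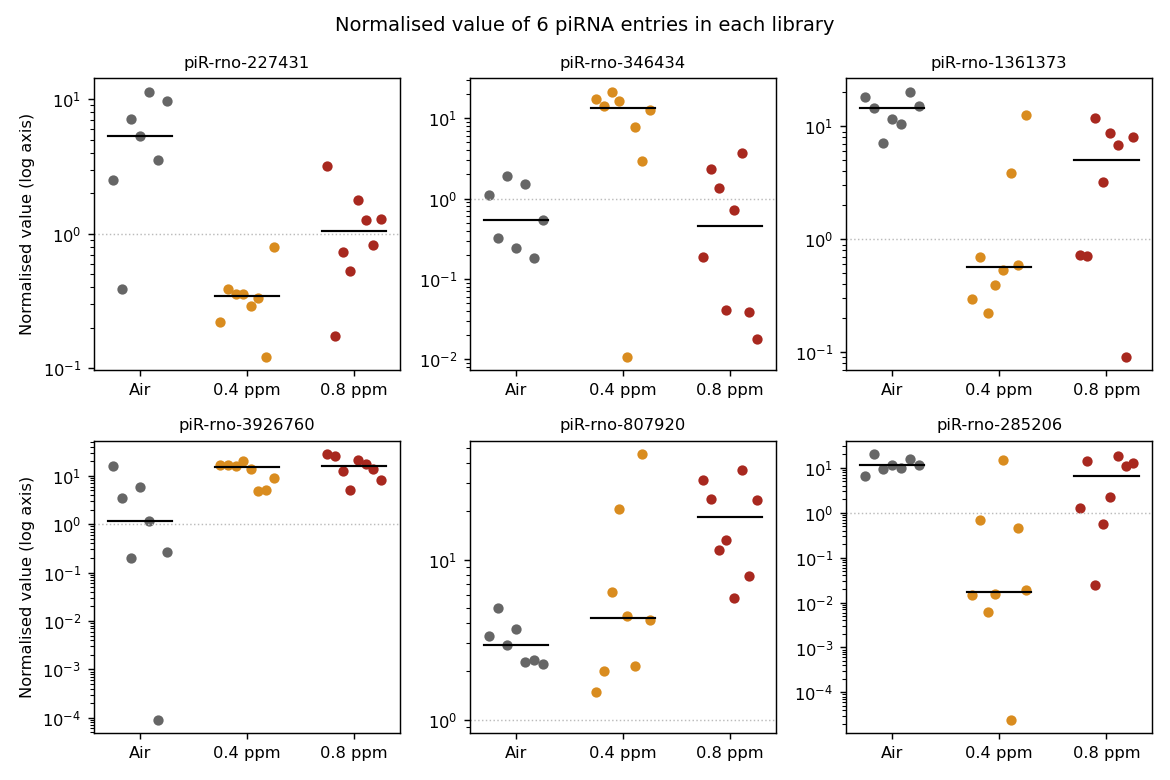
Normalised value (log axis) of each of the 6 piRNA entries in every library, by ozone dose, with 1 point per rat, a black line at the group median and a dotted line at a value of 1. The 3 lower entries fall to fractions at 0.4 ppm, with single libraries such as the one at 15.0 for piR-rno-285206 at air levels, and piR-rno-807920 at 0.8 ppm is the only entry whose ozone libraries lie apart from air.

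The other 3 entries were higher in at least 1 ozone group. piR-rno-346434 stood at 0.180, 0.545 and 1.93 in air (lowest, median and highest), 0.0107, 13.5 and 21.4 at 0.4 ppm, and 0.0180, 0.451 and 3.70 at 0.8 ppm. At 0.4 ppm 7 of 8 libraries were above the highest air library, and replicate 5 was below the lowest. At 0.8 ppm 5 of 8 libraries were under 1 read, and the range covered that of air on both sides. The log2 fold change against air was 2.41 ± 0.52 (SE) at 0.4 ppm and 0.01 ± 0.52 at 0.8 ppm. At 0.8 ppm against 0.4 ppm, a comparison that shares the 0.4 ppm libraries the entry was chosen on, the log2 fold change was -2.41 ± 0.51.

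piR-rno-3926760 had values of 9.14e-05, 1.14 and 16.1 in air, 4.94, 14.9 and 19.8 at 0.4 ppm, and 5.21, 15.9 and 27.7 at 0.8 ppm (lowest, median and highest). None of the 16 ozone libraries was under 1 read, while 3 of 7 air libraries were. Of the 7 air libraries 5 lay below every ozone library. Air replicate 1, at 16.1, lay among the ozone libraries, and air replicate 4, at 5.73, was above the lowest of each ozone group. Its log2 fold change was 2.12 ± 0.53 (SE) at 0.4 ppm and 2.44 ± 0.53 at 0.8 ppm, and the 2 ozone groups overlapped widely, with a log2 fold change of 0.33 ± 0.51 at 0.8 ppm against 0.4 ppm.

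piR-rno-807920 had lowest, median and highest values of 2.23, 2.93 and 4.97 in air, 1.495, 4.32 and 45.4 at 0.4 ppm, and 5.79, 18.4 and 36.5 at 0.8 ppm, and none was under 1 read. Each of the 8 libraries at 0.8 ppm lay above each air library. It was the 1 entry of the 6 whose 0.8 ppm and air libraries did not overlap, a pattern found in 5 rows of the table (0.0163%), 4 higher (0.013%) and 1 lower (0.00326%). No entry was free of overlap with air at 0.4 ppm, where 4 rows were (0.013%), all lower, nor at 0.8 ppm against 0.4 ppm, where 3 rows were (0.00978%), all higher. Since the entries were chosen on these contrasts, nothing is read from those counts. At 0.4 ppm 3 libraries were above air, 3 below and 2 within. The log2 fold change was 0.77 ± 0.53 (SE) at 0.4 ppm and 2.10 ± 0.53 at 0.8 ppm.

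**Figure D2:**
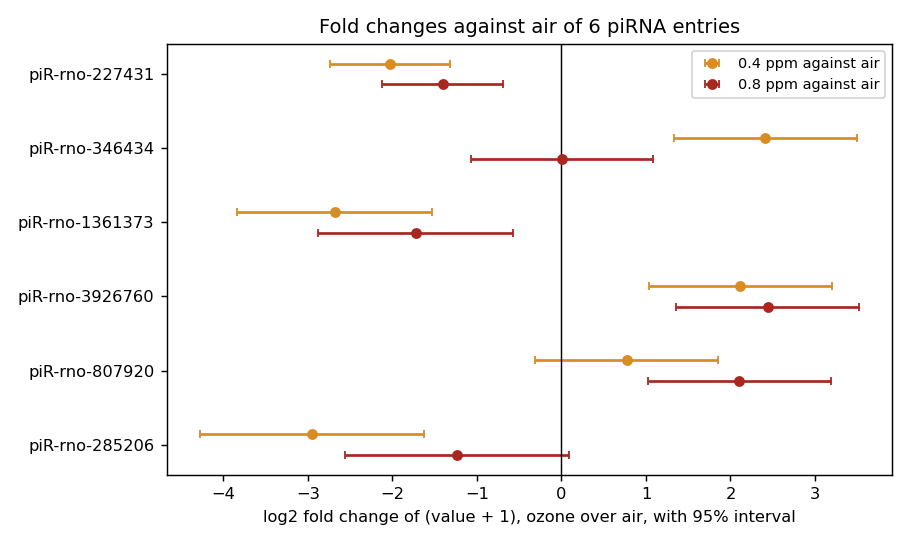
Log2 fold changes of (value + 1) against air with 95% limma intervals for the 6 entries, 0.4 ppm in orange and 0.8 ppm in red. Both contrasts share the 7 air libraries. The entries were chosen on these contrasts, so the intervals are a description, and whether they include 0 is no test. piR-rno-346434 is at 2.41 at 0.4 ppm and at 0.01 at 0.8 ppm, and piR-rno-3926760 is above 2 at both.

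Side by side, 3 of the 6 entries were higher and 3 lower at 0.4 ppm, and likewise at 0.8 ppm, where piR-rno-346434 counts as higher with a fold change of 0.01. The 2 contrasts share the air libraries, so a like direction in both is not a second observation. With the group means removed, the entries varied little together over the 23 libraries. The pair with the largest remaining correlation, piR-rno-346434 and piR-rno-285206, had Pearson r = -0.384, and the 14 other pairs lay between -0.239 and 0.192. These are descriptions over libraries that share 1 scaling.

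Each of the 6 entries was tied to other piRBase entries by a ratio that repeated across libraries. The choice of entries did not use these ratios, but they come from the same values. Nothing is therefore read from all 6 having them. A row is called linked here when its ratio to the entry was the same within 2% in at least 8 libraries. The definition was set after the values were seen. The entries were chosen for their differences from air and the linked rows were not. A sum of an entry and its linked rows can lie nearer to air than the entry for that reason alone. There were 12 linked distinct rows, 14 with copies, and every entry had between 1 and 3. Linked rows were also found for 5310 of the 15164 distinct rows, or 35.0%. In 3 of the 6 entries a linked row carried the next piRBase number: piR-rno-1361374, piR-rno-3926761, and piR-rno-285207 with its identical copy piR-rno-285208. The remaining entries had no row within 5 numbers of them. How often such links occur over all rows was not computed, so nothing is read from that count.

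The clearest case was piR-rno-807920. The row piR-rno-3399560 stood at 0.146 times its value in all 23 libraries. The row piR-rno-3399557 stood at 7.39 times its value in 7 of 7 air libraries, 6 of 8 at 0.4 ppm and 1 of 8 at 0.8 ppm, and below that ratio in the other 9. piR-rno-807920 therefore held 11.7% of the sum of the 3 rows in each air library, a median of 11.7% and a highest of 63.5% at 0.4 ppm, and a median of 40.5% and a highest of 87.1% at 0.8 ppm. The sum of the 3 rows stood for a whole number of reads, within 0.01 of a read, in 23 of 23 libraries, while the entry alone did so in 0 of 23. In value the sum was 26.6 ± 8.46 (SD, n = 7) in air, 36.2 ± 22.6 (n = 8) at 0.4 ppm and 51.5 ± 27.0 (n = 8) at 0.8 ppm. At 0.8 ppm no sum lay within the air range of 19.0 to 42.4. There 6 of 8 were above it, at 44.5 to 82.7, and replicates 3 and 5 were below it, at 18.5 and 6.65. On the log2(value + 1) scale the sum at 0.8 ppm was 0.67 above air, where the entry alone was 2.10 above.

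piR-rno-3926761, the next number after piR-rno-3926760, stood at 0.0265 times the entry in 13 libraries, 2 of 7 in air, 5 of 8 at 0.4 ppm and 6 of 8 at 0.8 ppm, and above that in each of the other 10. Its mean was 13.7 ± 10.3 in air, 7.06 ± 10.5 at 0.4 ppm and 5.03 ± 8.99 at 0.8 ppm (SD), so its group means ran in the opposite order to those of the entry. A further row, piR-rno-3191873, stood at 0.157 times the entry in 12 libraries. The sum of the 3 rows was 23.0 ± 9.10 in air, 28.7 ± 12.5 at 0.4 ppm and 30.9 ± 10.9 at 0.8 ppm, 0.26 and 0.47 above air on the log2 scale, against 2.12 and 2.44 for the entry alone.

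piR-rno-1361373 was linked to piR-rno-1361374 at 0.201 times its value in 15 libraries, and to piR-rno-1743623 at 29.4 times in 9 and piR-rno-1743624 at 5.27 times in 8. The ratio to piR-rno-1743623 was met in 0 of 7 air libraries, 6 of 8 at 0.4 ppm and 3 of 8 at 0.8 ppm. The entry held a median of 59.7% of the 4 rows in air, 2.79% at 0.4 ppm and 21.4% at 0.8 ppm. Their sum was 22.5 ± 4.11 (SD) in air, 18.4 ± 7.79 at 0.4 ppm and 22.4 ± 5.41 at 0.8 ppm. On the log2 scale the sum differed from air by -0.37 at 0.4 ppm and -0.04 at 0.8 ppm, against -2.68 and -1.73 for the entry alone.

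**Figure D3:**
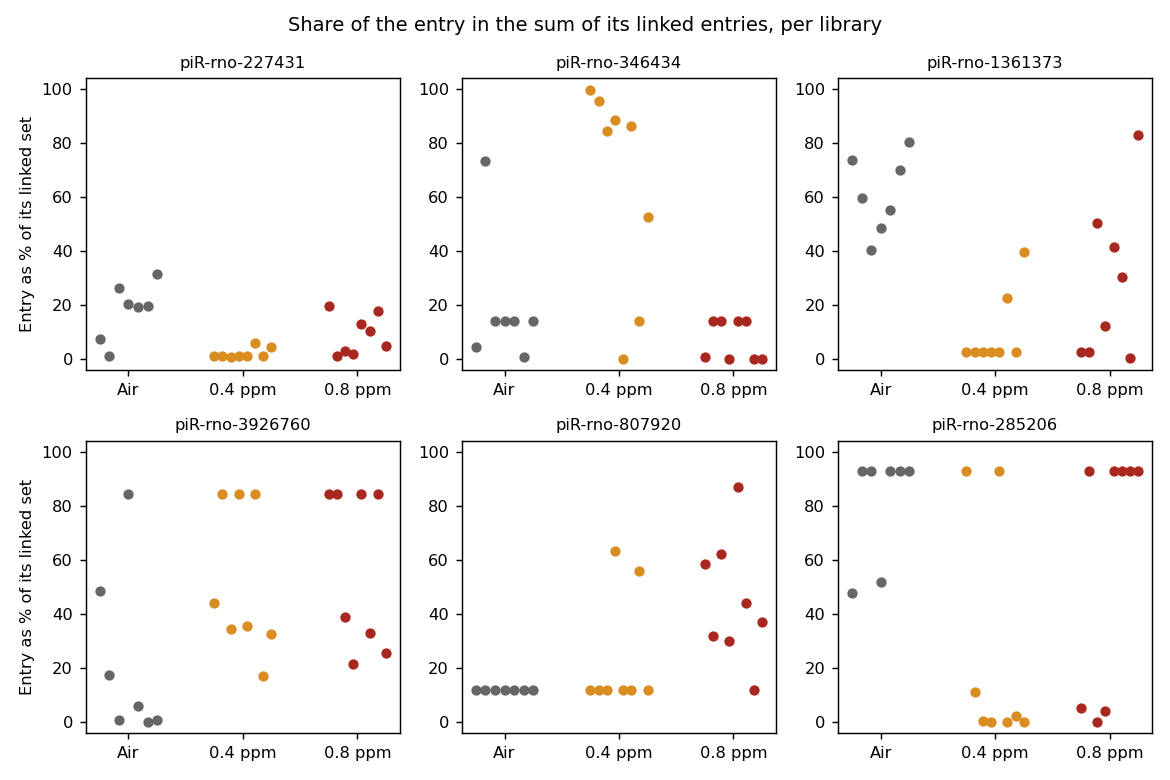
Each entry as a percentage of the sum of itself and its linked rows, by ozone dose, with 1 point per rat. Points on 1 horizontal level, such as 11.7% for piR-rno-807920 in 7 of 7 air libraries, mark libraries in which the rows stood at their fixed ratios.

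For piR-rno-346434, piR-rno-1315281 stood at 4.99 times its value in 10 libraries and piR-rno-1870403 at an equal value in 9. The entry held a median of 14.3% of the 3 rows in air, 85.5% at 0.4 ppm and 7.66% at 0.8 ppm. Their sum was 10.4 ± 8.94 in air, 18.5 ± 5.115 at 0.4 ppm and 16.9 ± 6.67 at 0.8 ppm (SD), or 1.30 and 1.10 above air on the log2 scale. At 0.8 ppm the sum was thus further from air than the entry, which differed by 0.01. At 0.4 ppm replicate 5, where the entry was at 0.0107, the sum was 18.1, near the group median of 18.3.

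For piR-rno-285206, the 2 copies piR-rno-285207 and piR-rno-285208 stood at 0.0381 times its value in 12 libraries, 5 of 7 in air, 2 of 8 at 0.4 ppm and 5 of 8 at 0.8 ppm, and above that in each of the other 11. The sum of the 3 rows was 15.1 ± 4.84 in air, 8.14 ± 7.07 at 0.4 ppm and 14.7 ± 6.25 at 0.8 ppm (SD). Its log2 difference from air was -1.34 at 0.4 ppm and -0.15 at 0.8 ppm, against -2.95 and -1.24 for the entry alone. In 0.4 ppm replicate 1 the sum was 0.0157, so there the linked rows were low along with the entry.

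For piR-rno-227431, piR-rno-753807 had an equal value in 10 libraries, and piR-rno-916289, present in 2 identical copies, stood at 37.8 times its value in 8, 6 of them at 0.4 ppm. The sum of the 4 rows was 32.2 ± 12.7 in air, 20.7 ± 10.6 at 0.4 ppm and 17.4 ± 8.28 at 0.8 ppm (SD), 0.73 and 0.94 lower than air on the log2 scale (-0.73 and -0.94). The entry alone differed by -2.03 and -1.41.

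**Figure D4:**
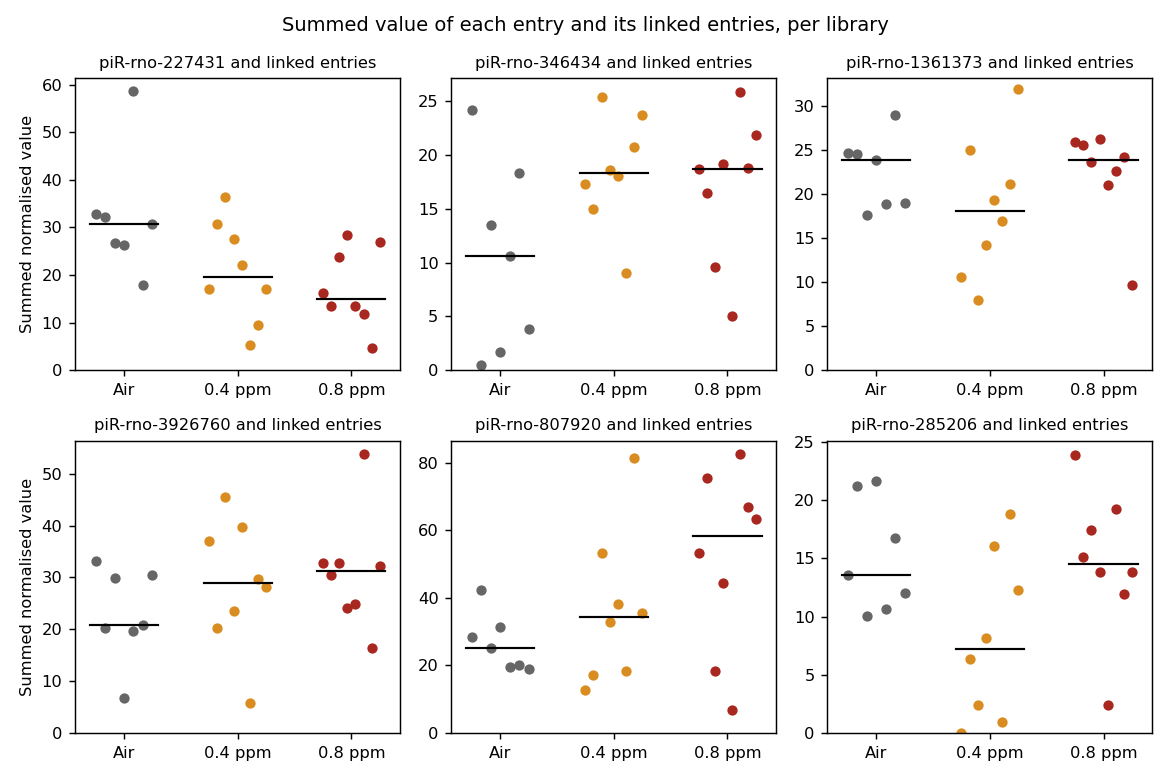
Summed normalised value (linear axis) of each entry and its linked rows, by ozone dose, with 1 point per rat and a black line at the group median. For piR-rno-807920 at 0.8 ppm, 6 of 8 sums lie above the highest air sum of 42.4 and 2 below the lowest of 19.0. For piR-rno-346434, 7 of 8 sums lie within the air range at each dose, but that range is wide, from 0.445 to 24.1.

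How far the sums lay within the air range differed between sets. At 0.4 ppm 7 of 8 sums lay within it for piR-rno-346434, 4 for piR-rno-227431 and piR-rno-3926760, and 3 for the others. At 0.8 ppm 7 of 8 lay within it for piR-rno-346434, piR-rno-1361373 and piR-rno-3926760, 6 for piR-rno-285206, 3 for piR-rno-227431 and 0 for piR-rno-807920. The air range of piR-rno-346434 was wide, from 0.445 to 24.1. Its sums were on average 1.30 above air at 0.4 ppm and 1.10 above at 0.8 ppm on the log2 scale. Sums outside the air range were below air in 4 of 8 libraries at 0.4 ppm and 5 of 8 at 0.8 ppm for piR-rno-227431, in 5 of 8 at 0.4 ppm for piR-rno-285206 and in 4 of 8 at 0.4 ppm for piR-rno-1361373. They were above air in 3 of 8 at 0.4 ppm for piR-rno-3926760. The linked rows were found in the same libraries. Where they are larger than the entry, as for piR-rno-807920, a change of the entry alone moves the log2 value of the sum less. The choice of the entries by their differences from air acts in the same direction. Sums were whole numbers of reads in 8 of 23 libraries for piR-rno-346434 and in 1 or 0 of 23 for each of the remaining 4, against 23 of 23 for piR-rno-807920. No test was made of the sums, and the cause of the fixed ratios was not tested.

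By the likeness of their profiles over the 23 libraries, measured as Pearson r of log2(value + 1), piR-rno-807920 was closest to piR-rno-3399560 (r = 0.993) and piR-rno-1361373 to piR-rno-1361374 (r = 0.865), both linked rows. piR-rno-1361373 was next closest to piR-rno-396347 (r = 0.809), which averaged 34.7 ± 10.5 in air, 8.57 ± 11.4 at 0.4 ppm and 25.5 ± 17.8 at 0.8 ppm (SD), and then to piR-rno-1580384 (r = 0.758). piR-rno-807920 was next closest to piR-rno-2135023 (r = 0.778) and piR-rno-1280229 (r = 0.756). The closest row to piR-rno-227431 was piR-rno-1362016 (r = 0.718), ahead of piR-rno-2531741 (r = 0.663) and piR-rno-485197 (r = 0.616). The closest row to piR-rno-285206 was piR-rno-2048405 (r = 0.702), ahead of piR-rno-1483006 (r = 0.671) and piR-rno-1168878 (r = 0.657). piR-rno-3926760 was closest to piR-rno-14262 (r = 0.663), piR-rno-53335 (r = 0.652) and piR-rno-4791 (r = 0.649). piR-rno-346434 was closest to piR-rno-1177288 (r = 0.640), piR-rno-3702441 (r = 0.630) and piR-rno-25399 (r = 0.622). The entries were chosen for a difference between groups, so rows that differ between the same groups rank high here. With group means removed, r was 0.989 for piR-rno-807920 with piR-rno-3399560 and 0.188 for piR-rno-346434 with piR-rno-25399.

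The share of low values in a library is a measure that did not choose the entries. It uses a fixed cut in value, so it also depends on what 1 read was worth in the library. That worth averaged 0.812 ± 0.170 (SD) in air, 1.09 ± 0.454 at 0.4 ppm and 0.891 ± 0.246 at 0.8 ppm. Air replicate 1, with the lowest worth of the 23 libraries at 0.473, had a share of 6.77%. The library with the highest worth, 0.4 ppm replicate 5 at 2.01, had 20.1%. Libraries of like worth also differed, with 9.45% in air replicate 7 at 0.952 and 13.3% in 0.8 ppm replicate 5 at 0.950. The part of this worth in the differences below was not tested. At 0.4 ppm 13.1% ± 3.61 of distinct piRNA rows had a value under 1, against 9.90% ± 2.12 in air (SD, n = 8 and n = 7). The difference of 3.20 percentage points did not pass (two-sided exact permutation p = 0.0549, adjusted p = 0.165 over 3 contrasts). With each library scaled to the same table total it was 5.16 points (exact permutation, adjusted p = 0.253). Without 0.4 ppm replicate 8, where 1 read was worth 0.531, the least in that group, it was 4.03 points and passed (exact permutation, adjusted p = 0.0210). At 0.8 ppm the share was 11.8% ± 2.61 (n = 8) against the same air value (exact permutation p = 0.1425, adjusted p = 0.214).

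Of the piRNA pathway, 2 of 26 listed genes had a transcript in the deposited transcript table, and neither passed in any contrast, where limma called 0 of 617 transcripts (0%). Tdrd1, a Tudor-domain protein that binds PIWI proteins in mouse, had a mean ± SD of 119.4 ± 31.9 (n = 7) in air, 103.5 ± 57.9 (n = 8) at 0.4 ppm and 114.5 ± 57.1 (n = 8) at 0.8 ppm. Its log2 fold change against air was -0.35 ± 0.34 (SE, limma adjusted p = 0.971) at 0.4 ppm, with a 95% interval of -1.04 to 0.34, and -0.17 ± 0.34 (limma adjusted p = 0.997) at 0.8 ppm. Tdrd12, a related protein needed for piRNA production in mouse, averaged 63.8 ± 24.8 in air, 57.7 ± 28.5 at 0.4 ppm and 52.6 ± 29.3 at 0.8 ppm (SD). Its log2 fold change was -0.20 ± 0.33 (SE) at 0.4 ppm and -0.33 ± 0.33 at 0.8 ppm, with the same limma adjusted p-values. These are small RNA reads assigned to transcripts, and whether they come from the mRNA was not tested.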

How the data were processed

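Small RNA of 23 rat sperm samples was read from tables deposited by the authors, with 1 column per rat matched to a labelled sample. The deposited values are a read signal that the authors had normalised, by a method the sources used here do not state. That repeated low values are multiples of 1 step per library is a finding from the values. Partek, Bowtie 1.0.0 and the rn6 build are listed in the submitters' processing notes. How reads matching several piRNA entries were assigned is likewise unstated. No piRNA value was 0, and 15512 rows repeated an earlier row. The piRNA, miRNA and transcript tables were not compared in level. The members and lists were chosen with earlier results of these data known.

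Rows above 0 in at least 8 libraries, which kept all 30676, were fitted with limma 3.58.1 (R 4.3.3) on log2(value + 1) over 3 groups, with mean-variance trend, robust moderation and Benjamini-Hochberg adjustment at 0.05. The procedure was tested on simulated data. The worth of 1 read was the largest step whose whole multiples, within 0.003, took at least 70% of the repeats of the 15 most repeated values under 20 in a library. They took 97.0% to 100%. Of all values worth 0.5 to 50 reads, 9.17% to 15.2% per library were whole within 0.01, so no count test was run. Entries were named by a fixed rule: the 6 members, identical rows, the 3 rows most alike to each, the rows next in rank, the most abundant row, and the pathway list. Linked rows are named in addition. They, the read step and the counts of whole sums were chosen after the values were seen. The suffixes of the library names recur, and the labels name no run or batch, so no within-batch value was computed. The series plans 8 rats in a group; 7 air rats were analysed. Alternatives were other pseudocounts, filters, scalings, weights, models, a rank test and leaving out each rat.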

Additional observations from a re-analysis of the deposited data

Results flagged for a closer look

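In 5 of the 18 sets of libraries formed by an entry and a group, 1 library stood far from the others by Dixon's criterion. Chance flags about 1 set in 20 of normally distributed values not chosen beforehand. The values here were not log-transformed, and every flagged library was the highest of its set. These entries were also chosen in part by calls with 1 rat left out, so that rate does not apply and the values are a description. piR-rno-285206 was at 14.97 in 0.4 ppm replicate 5, against 0.696 in the next library of that group. Replicate 5 also had the highest worth of 1 read of the 23 libraries, 2.01. Its miR-34c-5p share of the miRNA table, 13.3%, was the lowest. piR-rno-1361373 was at 12.73 in 0.4 ppm replicate 8, against 3.85 in the next, and the same library held the highest value of piR-rno-227431 at 0.4 ppm, 0.7945 against 0.388. piR-rno-3926760 was at 16.13 in air replicate 1, against 5.73 in the next. piR-rno-807920 was at 45.43 in 0.4 ppm replicate 7, against 20.8 in the next. The other flagged libraries were unlike replicate 5 in both traits. In 0.4 ppm replicate 8, 1 read was worth 0.531 and the miR-34c-5p share was 26.9%. These were 0.830 and 25.5% in 0.4 ppm replicate 7, and 0.473 and 27.8% in air replicate 1. The part of either trait in the flagged values was not tested.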

How the results depend on the processing

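No piRNA row was called at 0.4 ppm, at 0.8 ppm or at 0.8 ppm against 0.4 ppm with every library kept, under the planned pseudocounts, filters, scalings, weights, models and the exact Wilcoxon test. With each library left out in turn the count ran from 0 to 2 at 0.4 ppm against air, stayed at 0 at 0.8 ppm against air, and ran from 0 to 1 at 0.8 ppm against 0.4 ppm. Without air replicate 2 the 1 call was piR-rno-227431, at -2.36 on the log2 scale. Leaving out 0.4 ppm replicate 5 gave 2 calls at 0.4 ppm against air, piR-rno-346434 (2.87) and piR-rno-285206 (-3.43), and 1 at 0.8 ppm against 0.4 ppm, piR-rno-346434 (-2.86). The entries were chosen in part by calls with 1 rat left out, so finding them called here is no separate result. Raising values under 1 read to 1 read, an alternative chosen after seeing the data, gave 1 call at 0.4 ppm, piR-rno-346434 with 2.31, and 0 elsewhere. Of 424 fold changes of the 6 entries against air recomputed under alternatives, 10 moved by at least 1 SD, each under a pseudocount of 0.1 or 5, such as piR-rno-285206 at 0.4 ppm with -5.15 and -1.43. Another sign appeared in 12, each for piR-rno-346434 at 0.8 ppm, whose value was 0.01. The 424 include refits that cannot change a fold change. Such refits left out a rat of the group not compared, or altered only the rows kept, the moderation or the groups fitted. The 424 are therefore no measure of how stable the fold changes are. The difference in low rows ran from 2.20 to 4.03 percentage points at 0.4 ppm with each library left out, from 1.39 to 2.49 at 0.8 ppm and from -2.12 to -0.28 between doses. It passed only at 0.4 ppm without 0.4 ppm replicate 8 (adjusted p = 0.0210 by exact permutation). At 0.4 ppm the exact permutation adjusted p was 0.0210 to 0.366 over the libraries left out and 0.127 to 0.253 over the other alternatives. Over the libraries left out it was 0.0823 to 0.421 at 0.8 ppm and 0.176 to 0.847 between doses. With each library scaled to the same table total the difference was 5.16 points at 0.4 ppm, 2.22 at 0.8 ppm and -2.94 between doses, and none passed. A filter on a mean of at least 10 removed 4 of the 6 entries, so it gave no value for them. No paired analysis was possible because the replicate numbers were given in accession order and pair no rats. Values under 1 read limit what depth can show for these entries.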
